A study of Mus musculus with 6 samples.

Results

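The HOX cluster genes are 39 genes in the GENCODE M21 annotation of the mouse, in the 4 clusters A to D, and 35 of them were among the 23154 gene IDs of the deposited count tables. Members were taken by symbol alone, a cluster letter followed by a paralog number. Hoxd1, Hoxd11, Hoxd12 and Hoxd13 were absent from these counts and were not analysed here. All libraries are of C2C12, a mouse myoblast cell line that was derived from adult leg muscle and can form myotubes in low serum. In 3 libraries the cells carried the pINDUCER20b-HA-NUR77 construct, a doxycycline-inducible HA-tagged NUR77, and in the other 3 a doxycycline-inducible GFP as the control. NUR77 is an orphan nuclear receptor encoded by Nr4a1. All 6 dishes had medium with 10% fetal calf serum and received doxycycline at 1 µg/mL for 18 hours, starting 24 hours after seeding, and no library without doxycycline was compared. There was 1 stable line per construct, so a difference between the lines and an effect of the construct cannot be told apart.

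HOX genes encode transcription factors with a homeodomain, the fold that reads DNA, and they give cells their position along the body axis and along the limb. Within a cluster the genes lie in the order in which they act from anterior to posterior, and genes with the same number in different clusters are paralogs. Many adult cells, among them fibroblasts and muscle cells, keep a HOX pattern of the place they came from. HOX proteins usually bind DNA together with PBX and MEIS family partners, and Polycomb and trithorax complexes keep the clusters silent or active.

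Depth was 19248468, 22821446 and 13906096 counts for the HA-NUR77 libraries, and 16797515, 14626157 and 14980546 counts for the GFP libraries. The transcript of Nr4a1 did not check the labels, since the labels do not say from which species the insert came, and it was at 22.6, 19.4 and 25.5 CPM in HA-NUR77 cells, against 19.4, 13.5 and 28.2 CPM in GFP cells. CPM are counts scaled to a common library total after a normalisation factor for each library. The myoblast markers were present in both groups, with a summed level of 5747 to 6533 CPM in HA-NUR77 cells and 3690 to 4878 CPM in GFP cells over 8 genes, of which 2 were called higher and 1 lower, or 4 higher and 2 lower with the replicate number as a block. The 7 myotube markers summed to 12710 to 15270 CPM in HA-NUR77 cells and 7986 to 11840 CPM in GFP cells, with 1 called higher, or 5 with the block. In both groups this was above the myoblast sum, so genes of differentiated muscle were expressed in both. Among the 12509 tested genes, 12.4% were called higher and 13.2% lower, or 23.5% higher and 24.6% lower with the block. The part of the myoblast and myotube genes in the HOX results was not tested. The 5 fibroblast markers summed to 342 to 509 CPM in HA-NUR77 cells and 340 to 433 CPM in GFP cells, with 1 called higher and 1 lower. Endothelial, haematopoietic, epithelial and adipocyte markers each summed to at most 3.25 CPM in any library, with 1 haematopoietic marker called higher and 1 epithelial marker lower, and Epcam, Adipoq, Plin1, Rbfox3 and Sox10 had no read. The 4 neural markers summed to 47.7 to 65.5 CPM in HA-NUR77 cells and 34.9 to 44.9 CPM in GFP cells, with 1 called higher. Nearly all of this sum was Map2, which was also the called gene. Snap25 had 1 read in HA-NUR77 cells and 0 in GFP cells.

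The homeobox is the stretch of each gene that members share most. A part of each homeobox is printed below because reads of paralogs can be told apart only where their letters differ. Each line gives 60 coding bases from the GENCODE M21 transcripts, 5′ to 3′, and the capitals mark the codons for the tryptophan, phenylalanine, glutamine and asparagine of the recognition helix, which contacts DNA, and the start of the next codon.
Hoxc13: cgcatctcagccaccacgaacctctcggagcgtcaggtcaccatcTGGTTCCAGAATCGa
Hoxa13: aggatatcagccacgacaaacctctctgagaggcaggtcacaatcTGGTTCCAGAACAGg
Hoxc6: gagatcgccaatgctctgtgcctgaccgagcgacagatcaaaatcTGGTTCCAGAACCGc
Hoxc10: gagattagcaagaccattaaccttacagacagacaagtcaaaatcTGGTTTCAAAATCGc
Hoxa10: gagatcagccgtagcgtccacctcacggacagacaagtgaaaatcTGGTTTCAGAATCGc
Hoxc11: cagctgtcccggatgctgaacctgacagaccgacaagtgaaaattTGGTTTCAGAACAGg
Hoxa11: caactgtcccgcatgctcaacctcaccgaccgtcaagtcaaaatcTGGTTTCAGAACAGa
Over these 60 bases Hoxa13 matched Hoxc13 at 48 positions and Hoxa10 matched Hoxc10 at 48, so each pair differed at several places even here. No stretch of 50 bases in the transcripts of Hoxc13, Hoxc6, Hoxc11, Hoxc4 or Hoxa10 occurred in a transcript of another gene. Hoxc10 shared 119 of its 1860 such stretches, 6.40%, with Hoxc5, whose long isoform uses an exon of Hoxc10, and counts of this pair are therefore uncertain where they share it.

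Among the HOX genes that were counted, expression in these cells lay almost wholly in the A and C clusters. Hoxd1, Hoxd11, Hoxd12 and Hoxd13 were not counted, so their levels are not known. Of 20299 HOX reads over the 6 libraries, 10883 came from HA-NUR77 cells and 9416 from GFP cells. The C cluster (chr15:102921103-103036852, GRCm38) gave 6493 reads in HA-NUR77 cells and 6038 in GFP cells. The A cluster (chr6:52155590-52260880) gave 4364 reads in HA-NUR77 cells and 3336 in GFP cells. In bulk samples fewer expressing cells and less RNA per cell cannot be told apart, which holds for every level given here.

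The B cluster (chr11:96194316-96368256) gave 25 reads in HA-NUR77 cells and 42 in GFP cells, over 10 genes. The D cluster (chr2:74668310-74765142) gave 1 read in HA-NUR77 cells, in Hoxd9, and none in GFP cells, over the 5 genes in the tables. A count of 0 in a library allows up to 3 reads, which is 0.132 to 0.216 CPM at these depths, and such limits cover counting error only. Enough reads for a test were found in 17 of the 35 genes, which were 9 of 11 in the A cluster, 8 of 9 in the C cluster and none in the B or D cluster. Of the 18 others, 7 had no read in any library.

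**Figure D1:**
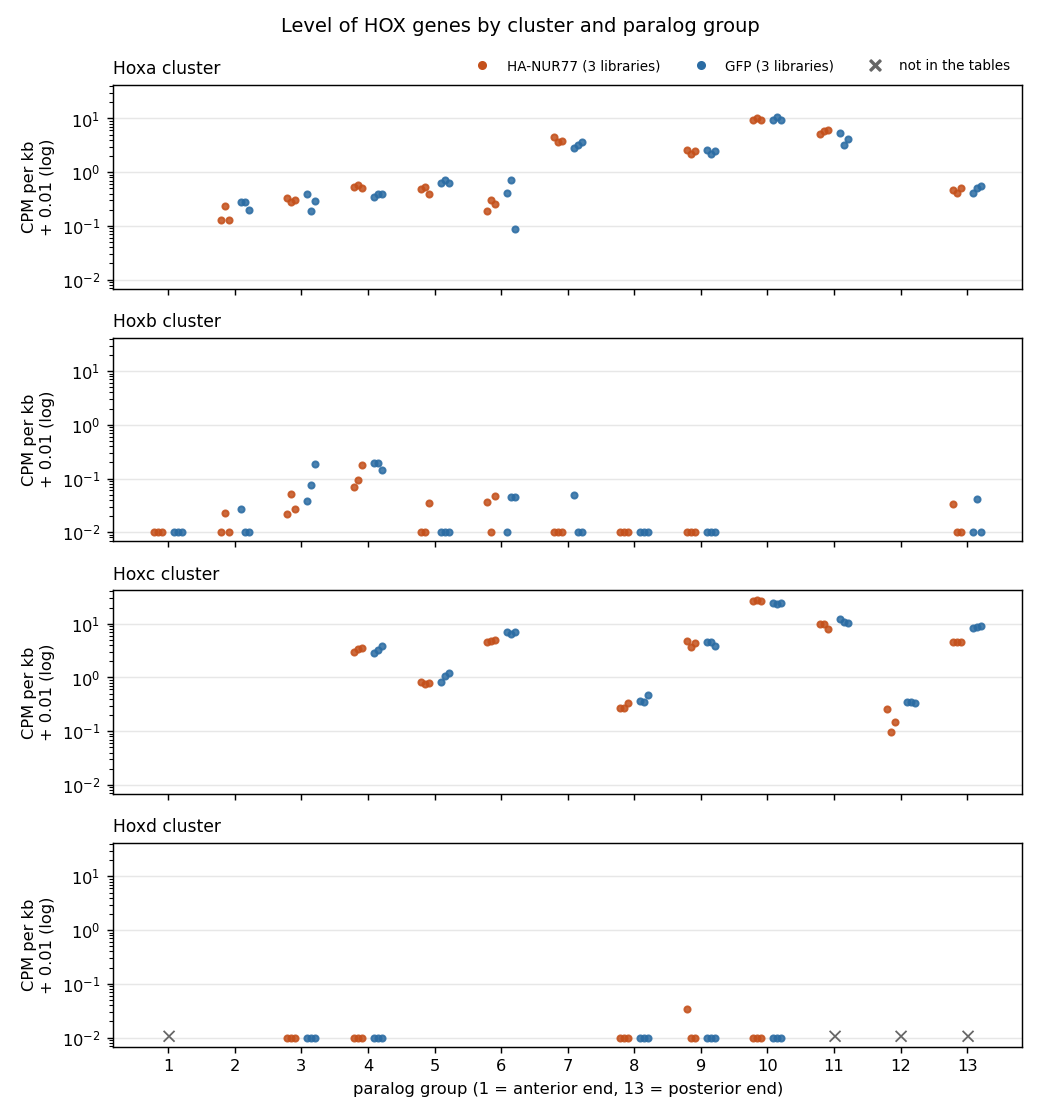
Level of the HOX genes in each library, in CPM per kb of exon with 0.01 added on a log axis, by paralog group from the anterior end (1) to the posterior end (13), with HA-NUR77 libraries left of GFP libraries. The A and C clusters hold every gene above 1 CPM per kb, the B cluster stays below 0.2 CPM per kb, the D cluster is at 0 apart from 1 read in Hoxd9, and a cross marks a gene not in the tables.

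Within the A and C clusters the levels were highest in paralog group 10 and its posterior neighbour 11. Levels between genes are compared per kb of exon, as CPM per kb. Hoxc10, a gene of the lumbar spine, lumbar motor neurons and hindlimb, was the most abundant, at 27.1 CPM per kb in HA-NUR77 cells and 24.3 CPM per kb in GFP cells. It held 24.9% of all HOX reads, and its level was at percentile 84.7 of the 12450 tested genes with a length, whose median was 6.22 CPM per kb. Hoxc11 followed at 9.24 CPM per kb in HA-NUR77 cells and 11.2 CPM per kb in GFP cells, then Hoxa10 at 9.57 CPM per kb in HA-NUR77 cells and 9.82 CPM per kb in GFP cells. Hoxc11 and Hoxa10 did not keep one order, since Hoxa10 was above Hoxc11 in HA-NUR77 cells and below it in GFP cells. The other tested members were below the median of tested genes, apart from Hoxc13 and Hoxc6 in GFP cells.

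The next tier, between 2.41 and 8.80 CPM per kb in either group, held Hoxc13, Hoxc6, Hoxa11, Hoxc9, Hoxa7, Hoxc4 and Hoxa9. Hoxc5, Hoxa5, Hoxa13, Hoxa4, Hoxc8 and Hoxa3 were lower, from 0.280 CPM per kb for Hoxa3 in GFP cells to 1.02 CPM per kb for Hoxc5 in GFP cells. The pattern along a cluster was not a smooth gradient. In the A cluster Hoxa7, Hoxa9, Hoxa10 and Hoxa11 stood above their neighbours on both sides, while Hoxa13 at the posterior end, a gene of the digits and genital tubercle, was at 0.453 CPM per kb in HA-NUR77 cells and 0.485 CPM per kb in GFP cells. In the C cluster Hoxc13 was well expressed beside Hoxc12, which had 5, 2 and 2 reads in HA-NUR77 cells and 6, 5 and 5 reads in GFP cells.

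The summed level of all HOX genes was 193 ± 2.40 CPM in HA-NUR77 cells and 204 ± 3.90 CPM in GFP cells (SD, n = 3 each). The A cluster summed to 77.6 ± 0.993 CPM in HA-NUR77 cells and 72.1 ± 1.40 CPM in GFP cells. The C cluster summed to 115 ± 1.93 CPM in HA-NUR77 cells and 131 ± 2.56 CPM in GFP cells. The A cluster was therefore above its GFP values, and the C cluster below, by more than the spread of the libraries. The lower C sum lay mainly in Hoxc13, at 11.1 CPM in HA-NUR77 cells and 21.7 CPM in GFP cells, and Hoxc6, at 11.4 and 16.5 CPM. Hoxc10 went the other way, at 51.8 and 46.3 CPM. Log2 fold changes were positive for 5 and negative for 4 tested A genes, and positive for 2 and negative for 6 tested C genes. The sums are given as a description, with no test.

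The make-up of the HOX reads does not use the depth or the scaling of a library. The A and C shares add up to nearly all HOX reads, so they are 1 measure and do not show which cluster differed. The A cluster held 40.4%, 39.7% and 40.3% of the HOX reads in the 3 HA-NUR77 libraries, against 35.6%, 35.5% and 35.2% in the 3 GFP libraries. The C cluster held 59.4%, 60.1% and 59.4% in HA-NUR77 cells, against 64.1%, 64.1% and 64.2% in GFP cells. The groups did not overlap. The exact binomial 95% interval of the A share had its lowest bound at 38.3% in the HA-NUR77 libraries and its highest at 37.2% in the GFP libraries, counting error only.

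**Figure D2:**
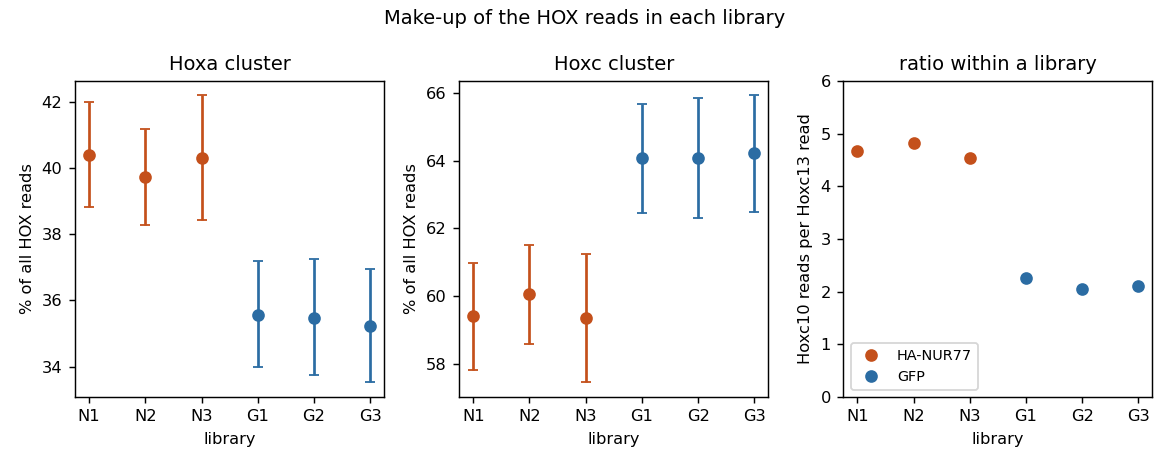
Share of all HOX reads from the A and the C cluster, with exact binomial 95% intervals, and Hoxc10 reads per Hoxc13 read, in each HA-NUR77 library (N1 to N3) and each GFP library (G1 to G3). The A share is 39.7% to 40.4% in HA-NUR77 cells and 35.2% to 35.6% in GFP cells, and the ratio is 4.53 to 4.82 in HA-NUR77 cells and 2.04 to 2.26 in GFP cells.

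Hoxc13 and Hoxc6 fell in HA-NUR77 cells, and no HOX gene was called higher. The other 15 tested members did not pass the threshold, an adjusted p under 0.05 in edgeR's quasi-likelihood test over 12509 genes. Over all tested genes 25.6% were called, 12.4% as higher and 13.2% as lower, and the HOX counts of 0 of 17 higher and 2 of 17 lower are to be read against that. The median log2 fold change was -0.03 over the 17 members, 0.08 over the 9 of the A cluster and -0.32 over the 8 of the C cluster, beside 0.01 over all tested genes. The fold change was positive for 7 members and negative for 10, and it was positive for 50.9% of all tested genes.

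Hoxc13 (chr15:102921103-102928814), at the 5′ end of the C cluster and known for its role in hair and nail keratin genes, showed the largest difference among the called members. Replicates 1, 2 and 3 held 213, 254 and 155 reads in HA-NUR77 cells and 352, 317 and 330 reads in GFP cells. Scaled by depth this was 11.01, 11.09 and 11.13 CPM in HA-NUR77 cells and 20.9, 21.8 and 22.3 CPM in GFP cells. All 3 HA-NUR77 libraries were near the same low level and all 3 GFP libraries were well above it. The level fell to 0.512 of that in GFP cells, a log2 fold change of -0.97 with an SE of 0.08 and a 95% interval of -1.15 to -0.78, at an adjusted p of 0.000326 in edgeR. DESeq2 gave an adjusted p of 6.39e-13 and limma-voom 0.000397. Leaving out any 1 library kept the log2 fold change between -0.99 and -0.95 and the adjusted p in edgeR between 0.00144 and 0.00401.

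Hoxc6 (chr15:102998257-103011881), a gene of the anterior thoracic level and of the motor neurons that serve the forelimb, also fell. It had 211, 263 and 165 reads in HA-NUR77 cells and 280, 229 and 252 reads in GFP cells, which was 10.9, 11.5 and 11.9 CPM in HA-NUR77 cells and 16.6, 15.7 and 17.1 CPM in GFP cells. The groups did not overlap. The log2 fold change was -0.53 with an SE of 0.09 and a 95% interval of -0.74 to -0.32, at an adjusted p of 0.00613 in edgeR and 0.000655 in DESeq2. It remained past the threshold without any 1 library, at an adjusted p in edgeR of 0.0142 to 0.0346.

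**Figure D3:**
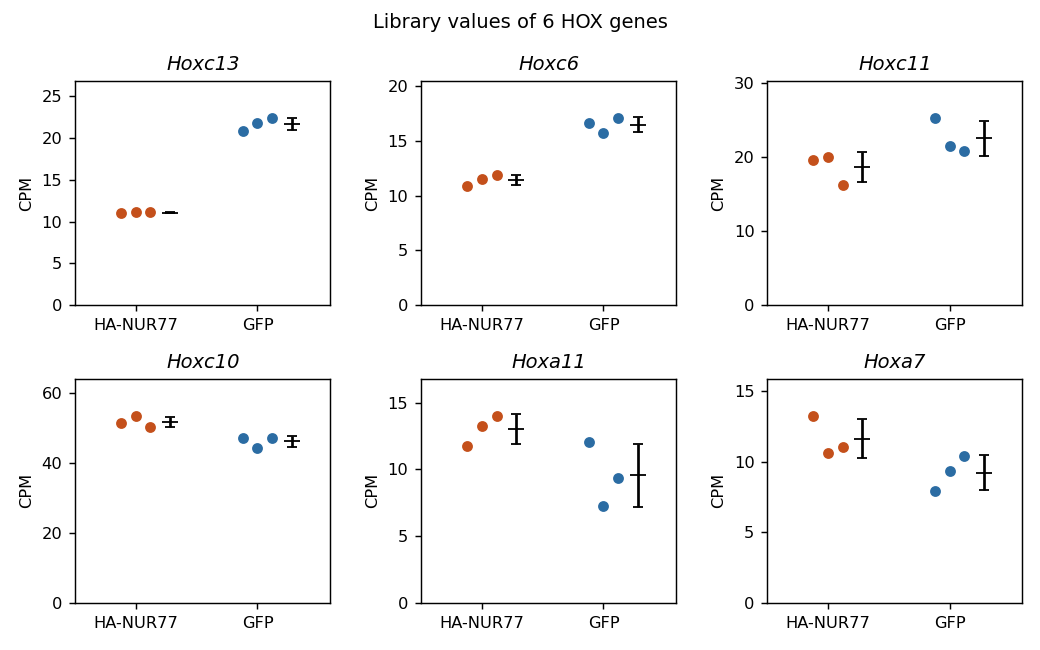
CPM of Hoxc13, Hoxc6, Hoxc11, Hoxc10, Hoxa11 and Hoxa7 in the 3 HA-NUR77 and the 3 GFP libraries, with the mean and SD beside the points and each axis starting at 0. Hoxc13 averages 11.1 CPM in HA-NUR77 cells and 21.7 CPM in GFP cells, and Hoxa11 is the panel in which a GFP library, at 12.0 CPM, lies among the HA-NUR77 values of 11.8 to 14.00 CPM.

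No other HOX gene of the C cluster was called without the replicate block. Hoxc11, which acts with its paralogs in kidney and limb, had 380, 459 and 227 reads in HA-NUR77 cells and 426, 314 and 308 reads in GFP cells. That was 19.65, 20.04 and 16.30 CPM in HA-NUR77 cells and 25.3, 21.6 and 20.8 CPM in GFP cells. The highest HA-NUR77 library lay just under the lowest GFP library. The log2 fold change was -0.27 with an SE of 0.12, at an adjusted p of 0.122 in edgeR, and it passed with the replicate number as a block, at an adjusted p of 0.0184. The block treats libraries with the same number as a pair, and with it 48.1% of all tested genes were called.

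Hoxc10 (chr15:102966796-102971893) had 995, 1224 and 702 reads in HA-NUR77 cells and 797, 647 and 697 reads in GFP cells. Its level was 51.5, 53.5 and 50.4 CPM in HA-NUR77 cells and 47.3, 44.4 and 47.2 CPM in GFP cells. The groups did not overlap, with HA-NUR77 cells above GFP cells, but the difference did not pass in edgeR, at a log2 fold change of 0.16 with an SE of 0.07 and an adjusted p of 0.104, or 0.0525 with the block. The ratio of 2 genes within a library is free of its depth and scaling. There were 4.67, 4.82 and 4.53 Hoxc10 reads per Hoxc13 read in the 3 HA-NUR77 libraries, against 2.26, 2.04 and 2.11 in the 3 GFP libraries. Hoxc11 reads per Hoxc13 read were 1.78, 1.81 and 1.47 in HA-NUR77 cells and 1.21, 0.991 and 0.933 in GFP cells, and Hoxc4 reads per Hoxc6 read were 0.701, 0.757 and 0.776 in HA-NUR77 cells and 0.436, 0.533 and 0.568 in GFP cells. None of these ratios overlapped between the groups. They were chosen after the values were seen and are given with no test.

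The remaining C genes did not pass. Hoxc9, which sets thoracic motor neuron identity, had 224, 207 and 150 reads in HA-NUR77 cells and 187, 164 and 141 in GFP cells, with a log2 fold change of -0.03. Hoxc4, a cervical gene at the 3′ end of the cluster, had 148, 199 and 128 reads in HA-NUR77 cells and 122, 122 and 143 in GFP cells, with a log2 fold change of 0.01. Both genes overlapped between the groups, and the 95% intervals of -0.33 to 0.28 for Hoxc9 and -0.32 to 0.35 for Hoxc4 leave room for changes of either sign. Hoxc5 had 49, 53 and 34 reads in HA-NUR77 cells and 43, 47 and 54 in GFP cells, and Hoxc8, a gene of the thoracic spine, had 14, 17 and 13 reads in HA-NUR77 cells and 17, 14 and 19 in GFP cells. Scaled by depth, both lay lower in every HA-NUR77 library than in any GFP library, but the log2 fold changes of -0.37 for Hoxc5 and -0.45 for Hoxc8 did not pass in edgeR, at adjusted p-values of 0.193 and 0.237.

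In the A cluster no gene was called without the block. Hoxa11 (chr6:52242106-52245810), which patterns the forearm and lower leg and the uterus, had 228, 303 and 195 reads in HA-NUR77 cells and 203, 106 and 138 reads in GFP cells. This was 11.79, 13.23 and 14.00 CPM in HA-NUR77 cells and 12.0, 7.28 and 9.34 CPM in GFP cells. GFP replicate 1 lay among the HA-NUR77 libraries and the other two GFP libraries lay below them. The log2 fold change was 0.44 with an SE of 0.18, at an adjusted p in edgeR of 0.111, or 0.0407 with the block. Without GFP replicate 1 it was 0.64, at an adjusted p of 0.0478. Hoxa11os, the antisense transcript that covers 33.0% of the 50-base stretches of Hoxa11, had 60, 59 and 40 reads in HA-NUR77 cells and 59, 33 and 31 reads in GFP cells, with a log2 fold change of 0.11 that did not pass. Since no source used here gives the strand setting of the counting, reads of Hoxa11 and Hoxa11os cannot be told apart with certainty.

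Hoxa7 (chr6:52214491-52221854), a gene of the thoracic level, had 256, 244 and 154 reads in HA-NUR77 cells and 134, 136 and 154 reads in GFP cells. Its level was 13.2, 10.7 and 11.1 CPM in HA-NUR77 cells and 7.95, 9.34 and 10.4 CPM in GFP cells. The lowest HA-NUR77 library was just above the highest GFP library. The log2 fold change of 0.34 with an SE of 0.14 did not pass in edgeR, at an adjusted p of 0.116, and was at the threshold with the block, at 0.0492. Hoxa7 shares 18.7% of its 50-base stretches with the antisense transcript Hoxaas3, which had 5 reads in HA-NUR77 cells and 5 in GFP cells.

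Hoxa10, the most abundant gene of the A cluster and known for its role in the uterus and the lumbar spine, was at 30.6, 33.1 and 30.2 CPM in HA-NUR77 cells and 30.9, 34.3 and 31.1 CPM in GFP cells. The groups overlapped, and the 95% interval of its log2 fold change ran from -0.22 to 0.15. Hoxa9, known for its role in blood stem cells and leukaemia, averaged 13.5 ± 1.22 CPM in HA-NUR77 cells and 13.5 ± 1.08 CPM in GFP cells (SD, n = 3 each), with an interval of -0.26 to 0.26. Both intervals, like those of Hoxc9 and Hoxc4, leave room for changes of either sign, and they were narrower than those of the tested genes with few reads.

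Towards the anterior end of the cluster, Hoxa4 had 16, 21 and 11 reads in HA-NUR77 cells and 9, 9 and 9 in GFP cells. Scaled by depth, every HA-NUR77 library lay above every GFP library, yet the log2 fold change of 0.53 did not pass in edgeR, at an adjusted p of 0.212. Hoxa5, needed for lung development, had 17, 22 and 10 reads in HA-NUR77 cells and 20, 19 and 17 in GFP cells, and all HA-NUR77 libraries lay lower after scaling, with a log2 fold change of -0.48 and an adjusted p in edgeR of 0.189. Hoxa3, needed for the thymus and parathyroid, had 38, 37 and 25 reads in HA-NUR77 cells and 38, 16 and 25 in GFP cells. It shares 24.3% of its 50-base stretches with transcripts of other genes, either strand counted. Hoxa13 had 22, 23 and 17 reads in HA-NUR77 cells and 17, 18 and 20 in GFP cells. In Hoxa3 and Hoxa13 the groups overlapped, and the 95% intervals were -0.58 to 0.73 for Hoxa3 and -0.66 to 0.46 for Hoxa13.

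The groups did not overlap in 4 members that lay higher in HA-NUR77 cells (among them Hoxa4, Hoxa7 and Hoxc10) and in 6 that lay lower (Hoxa5, Hoxc5, Hoxc6, Hoxc8, Hoxc11 and Hoxc13). Over all tested genes the groups lay apart in 45.6%, with HA-NUR77 cells higher in 23.0% and lower in 22.5%. With the block, Hoxa7 and Hoxa11 were called higher, and Hoxc6, Hoxc11 and Hoxc13 lower. These are 5 of 17 members, where the block called 23.5% of all tested genes higher and 24.6% lower.

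**Figure D4:**
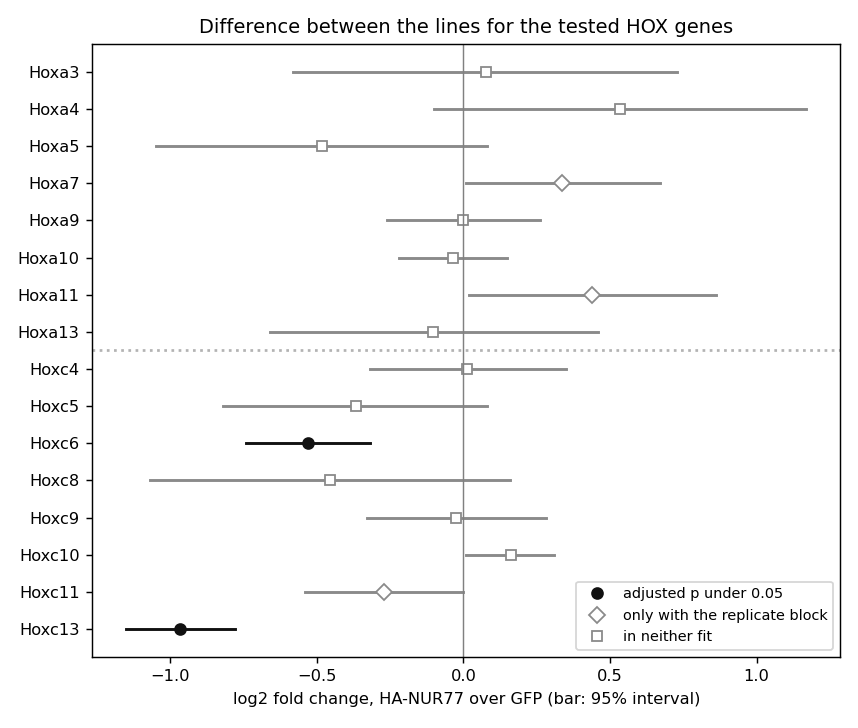
Log2 fold change of HA-NUR77 over GFP with its 95% interval for 16 of the 17 tested HOX genes, the A cluster above the dotted line and the C cluster below it. Hoxc6 at -0.53 and Hoxc13 at -0.97 pass without the block, Hoxa7, Hoxa11 and Hoxc11 only with it, and the other 11 in neither fit.

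Among the members with too few reads for a test, none had more than 36 reads over all libraries. Hoxa2, a gene of the second branchial arch, had 16 reads in HA-NUR77 cells and 20 in GFP cells, and Hoxa6 had 12 in HA-NUR77 cells and 16 in GFP cells. The depth-scaled ratio was 0.663 for Hoxa2 (exact binomial 95% interval 0.321 to 1.35) and 0.622 for Hoxa6 (0.269 to 1.40). Hoxc12, with 9 reads in HA-NUR77 cells and 16 in GFP cells, had a ratio of 0.466 (0.182 to 1.12). These intervals include 1, so no difference was detectable at this depth.

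In the B cluster Hoxb4 had 14 reads in HA-NUR77 cells and 20 in GFP cells, at a ratio of 0.580 (0.271 to 1.21). Hoxb3 had 1, 4 and 1 reads in HA-NUR77 cells and 2, 4 and 11 reads in GFP cells. It shares 51.4% of its 50-base stretches with the antisense transcript Hoxb3os. The interval of the Hoxb3 ratio, 0.0945 to 0.778 around 0.293, covers counting error only, and GFP replicate 3 alone held 11 of the 17 GFP reads. Hoxb2, Hoxb5, Hoxb6, Hoxb7 and Hoxb13 had at most 4 reads in all, and Hoxb1, Hoxb8, Hoxb9, Hoxd3, Hoxd4, Hoxd8 and Hoxd10 had none in any library. Hoxd3 shares 60.2% and Hoxd4 46.8% of its 50-base stretches with other genes on the same strand. Reads there belong to no single gene with certainty, so the counts of 0 are less certain for Hoxd3 and Hoxd4.

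The promoters show which letters stand before active and silent members. RefSeq promoters on GRCm38.p6, each 250 bases before to 50 after a start site, matched 18 members with 19 promoters. From the C cluster Hoxc4 alone was matched, so the promoters of Hoxc13 and Hoxc6 were not analysed here. The motifs were searched on both strands. AAAGGTCA, the site that a single NUR77 molecule binds, was in 0 of 19 HOX promoters and in 1.51% of the 32851 promoters in the table. Its shorter core AGGTCA, a site shared by many nuclear receptors, was in 7 of the 19, or 36.8%, and in 16.3% of all promoters. These were 2 of the 9 promoters of tested members (Hoxa5 and Hoxc4) and 5 of the 10 promoters of members not tested. CCATNTT, the core of YY1, a factor of Polycomb and activating complexes, was in 2 of 19, or 10.5%, and in 16.1% of all. TTTATNG, bound by posterior HOX proteins, was in 2 of 19 and in 10.9% of all. A match is only a match of letters.

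The 250 bases before the start are printed for Hoxc4, a tested member with a match to AGGTCA, and for Hoxb8, which had no read. Capitals mark the match to this core, read on the other strand, in Hoxc4 (chr15:103034145-103034394, plus strand) and the matches to the posterior HOX motif in Hoxb8 (chr11:96281655-96281904, plus strand).
Hoxc4: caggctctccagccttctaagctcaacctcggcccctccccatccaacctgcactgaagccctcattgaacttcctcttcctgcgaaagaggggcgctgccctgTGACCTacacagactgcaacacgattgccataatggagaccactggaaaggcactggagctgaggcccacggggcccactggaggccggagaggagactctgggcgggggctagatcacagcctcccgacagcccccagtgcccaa
Hoxb8: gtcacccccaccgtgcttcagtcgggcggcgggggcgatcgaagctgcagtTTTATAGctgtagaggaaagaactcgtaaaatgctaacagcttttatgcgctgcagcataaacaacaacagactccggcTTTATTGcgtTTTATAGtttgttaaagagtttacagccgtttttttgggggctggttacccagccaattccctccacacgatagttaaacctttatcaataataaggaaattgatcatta
The match in Hoxc4 lies 146 bases before the start, and Hoxb8 holds 3 matches. The number of CpG dinucleotides, which are dense in promoters that Polycomb can hold silent, was 4 to 45 with a median of 15 over the 9 promoters of tested members, and 4 to 26 with a median of 13.5 over the 10 promoters of members not tested. Both were above the median of 7 over all promoters, and the ranges of tested and untested members overlapped.

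The partners that HOX proteins bind DNA with were all expressed, and 4 of 9 were called, 1 higher and 3 lower, beside 12.4% higher and 13.2% lower over all tested genes. Pbx3 was at 13.91, 20.74 and 14.65 CPM in HA-NUR77 cells and 27.6, 34.8 and 27.9 CPM in GFP cells, with a log2 fold change of -0.86 and an adjusted p in edgeR of 0.0120. Every HA-NUR77 library lay below every GFP library. Pknox2, a partner of PBX proteins, fell with a log2 fold change of -0.63, and Pknox1, its close relative, rose with 0.39, at adjusted p-values in edgeR of 0.00979 and 0.00823. Pknox1 was at 40.5, 42.2 and 42.7 CPM in HA-NUR77 cells and 32.6, 32.8 and 30.0 CPM in GFP cells. Pbx2, the most abundant partner per kb, averaged 46.8 ± 0.648 CPM in HA-NUR77 cells and 47.2 ± 2.28 CPM in GFP cells (SD, n = 3 each). Meis2 was called only with the block, at a log2 fold change of 0.31 and an adjusted p in edgeR of 0.00236. The median of the 9 partners was -0.03 on the log2 scale, beside 0.01 over all tested genes.

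Of 40 Polycomb and trithorax genes, which keep HOX clusters silent or active, 7 fell and 1 rose, and their median log2 fold change was -0.06. Over all tested genes 25.6% were called, 12.4% as higher and 13.2% as lower. The share of the 40 called was no higher than that, but most of their calls were lower. Rnf2, a ubiquitin ligase of Polycomb repressive complexes, was at 46.8, 40.0 and 46.9 CPM in HA-NUR77 cells and 76.0, 70.2 and 62.4 CPM in GFP cells. Its log2 fold change was -0.64, at an adjusted p in edgeR of 0.00459. The related ligase Ring1 went the other way, with a log2 fold change of 0.22. Ring1 did not pass in edgeR, at an adjusted p of 0.165, or passed with the block at 0.0460. Kdm5b, a demethylase of a mark of active promoters, fell with a log2 fold change of -0.75 at an adjusted p in edgeR of 0.00225. Kdm2b, which brings Polycomb complexes to CpG islands, fell with -0.55, and the Polycomb subunits Cbx6, Pcgf2 and Phc3 fell with -0.41, -0.39 and -0.35. The seventh was Kdm6b, a demethylase that removes the Polycomb mark, with -0.28. Aebp2, a cofactor of the Polycomb methyltransferase, rose with 0.21 at an adjusted p in edgeR of 0.0492. Rbbp7, the most abundant per kb, had a log2 fold change of 0.03 that did not pass. The block gave 6 higher and 14 lower genes, where it called 48.1% of all tested genes, 23.5% as higher and 24.6% as lower. Several of these calls were not stable in edgeR when 1 library was left out. Phc3 was lost in all 6 omissions, at adjusted p-values of 0.0534 to 0.132. Kdm6b was lost in 5 of 6, all but that of GFP replicate 2, at 0.0565 to 0.117, and Aebp2 in 5 of 6, all but that of HA-NUR77 replicate 2, at 0.0749 to 0.144. Pcgf2 was lost without HA-NUR77 replicate 1, at 0.0619, and without GFP replicate 1, at 0.0595, and 4 genes fell in each of these omissions.

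Of 20 tested regulators that act upstream of HOX genes or beside them in the limb, 7 fell and 1 rose, beside 13.2% lower and 12.4% higher over all tested genes. The median over the 20 was -0.39 on the log2 scale. Of the retinoic acid genes, the receptor Rara fell with -0.42 (adjusted p in edgeR 0.00494) and the carrier Crabp2 with -0.78 (0.0424), while Rxrb, a receptor partner, rose with 0.31 (0.0202). Egr2, which drives HOX genes in the hindbrain, fell to 0.5004 of the GFP level (0.0136). The homeobox genes Prrx2 and Prrx1 fell with -0.63 and -0.40, and Gli3, a transcription factor of hedgehog signalling in the limb, with -0.52. Tbx15, the most abundant per kb, averaged 249.1 ± 35.8 CPM in HA-NUR77 cells and 294.4 ± 46.4 CPM in GFP cells and was called lower only with the block, at an adjusted p in edgeR of 0.00382. The block called 12 of the 20 lower, and 24.6% of all tested genes. The hindlimb gene Tbx4 was at 1.17 ± 0.0673 CPM in HA-NUR77 cells and 1.40 ± 0.189 CPM in GFP cells, while the hindlimb gene Pitx1 and the forelimb gene Tbx5 had no read. Without GFP replicate 1 the count of genes that fell was 3, among them Rara and Prrx2, none rose in edgeR, and the adjusted p was 0.0508 for Prrx1, 0.0574 for Egr2, 0.0727 for Rxrb, 0.134 for Gli3 and 0.145 for Crabp2. Crabp2 was lost in 5 of the 6 omissions of a library, all but that of GFP replicate 3, at 0.0554 to 0.145 in edgeR. Gli3 was also lost without HA-NUR77 replicate 1 or 3 or GFP replicate 2, at 0.0827 to 0.126, and Rxrb without HA-NUR77 replicate 1 or 3, at 0.0721 and 0.0550.

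Hotair, a long non-coding RNA on the strand opposite the C genes, was the one called gene among the 24 other genes inside the clusters, of which 4 were tested. It had 87, 86 and 53 reads in HA-NUR77 cells and 111, 74 and 90 reads in GFP cells, or 4.50, 3.76 and 3.81 CPM in HA-NUR77 cells and 6.58, 5.08 and 6.09 CPM in GFP cells. The HA-NUR77 libraries all lay below the GFP libraries. The log2 fold change was -0.56 with an SE of 0.16, at an adjusted p in edgeR of 0.0400, and 0.00816 with the block. The call held at 0.0423 without GFP replicate 2 and was lost when any other library was left out, at 0.0688 to 0.139 in edgeR. The other 3 tested genes inside the clusters, Hoxaas2, Gm15050 and Hoxa11os, all lie in the A cluster, and their log2 fold changes of 0.27, 0.19 and 0.11 did not pass. The remaining 20, among them Hoxaas3, Hoxb3os and Hoxd3os1, had at most 12 reads in either group. Of the 13 tested genes within 250 kb outside a cluster, 3 rose and none fell, beside 12.4% higher and 13.2% lower over all tested genes. Skap2, an adaptor of immune cell signalling beside the A cluster, rose with 0.35, and Atp5g1 and Atp5g2, which encode the same subunit of ATP synthase beside the B and C clusters, rose with 0.45 and 0.26. Without HA-NUR77 replicate 1 none of these 3 passed in edgeR, at adjusted p-values of 0.0521 for Skap2, 0.0524 for Atp5g1 and 0.0565 for Atp5g2, and without GFP replicate 1 only Skap2 did. The call of Atp5g2 was lost in each of the 6 omissions, at 0.0565 to 0.107.

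**Figure D5:**
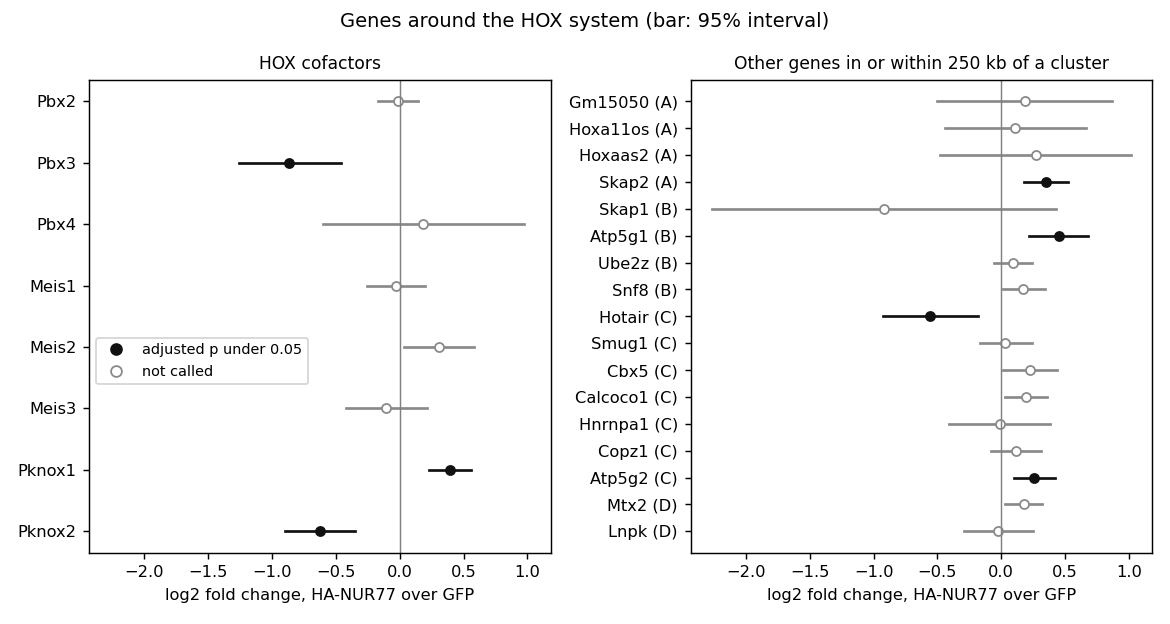
Log2 fold change of HA-NUR77 over GFP with its 95% interval for 8 of the 9 HOX cofactors and for the 17 tested genes inside or within 250 kb of a cluster, whose letter is in brackets. Pbx3, Pknox2 and Hotair pass below 0, and Pknox1, Skap2, Atp5g1 and Atp5g2 pass above 0.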

How the data were processed

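RNA-seq libraries of 3 HA-NUR77 and 3 GFP dishes were analysed. The authors deposited unnormalised read counts for each Ensembl gene in each library. Per the labels' protocols, poly(A) RNA was sequenced from stranded dUTP libraries. Per the submitters' processing notes the tools were TopHat2 2.1, HTSeq and DESeq2, on mm10. The annotation release and the strand setting are not given in the sources used here. Totals ran from 13906096 to 22821446 counts, no row named no gene, and the number of unused columns of per-sample values was 0. Symbols, spans and union exon lengths came from GENCODE M21 (22872 of 23154 IDs matched).

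Groups were compared in R 4.3.3 by the quasi-likelihood test of edgeR 4.0.16 with TMM factors, robust fitting and filterByExpr at a minimum count of 10, two-sided, adjusted by Benjamini-Hochberg over 12509 genes at a threshold of 0.05. CPM used the same factors. Depth-scaled ratios divide summed reads by summed counts in tested genes. Alternatives were DESeq2 1.42.0, limma-voom (limma 3.58.1), other factors and filters, a replicate block and leaving out each library. Only the edgeR fit without the block was tested on simulated data.

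The labels number the replicates 1 to 3 without naming a shared day. Deviations from the group means correlated at 0.25, 0.551 and 0.475 between same-numbered libraries, each over 0.1. Between libraries with different numbers they correlated at -0.437 to -0.055. Deviations within a group cancel out, so these correlations are not independent of each other. The block uses the replicate numbers of the labels, and reading these as pairs rests on the correlations, since no label states a pairing. Residual degrees of freedom were 2 with the block and 4 without it, and its value stands beside each HOX call it changes and, for the lists, as counts. Replicates differed by more than sampling noise (chi-square per degree of freedom 11.4 to 28.7), and p-values measure the spread between dishes of 1 line each.

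The tested HOX genes are named, and of each companion list up to 8 members past the threshold and the most abundant per kb. Meis2, Ring1, Tbx4, Pitx1, Tbx5 and the within-library ratios were added after their values were seen. Values of some single genes and 1 sequence are not reported here. The HOX genes and the companion lists were chosen with earlier results of these data known.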

Additional observations from a re-analysis of the deposited data

How the results depend on the processing

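Hoxc6 and Hoxc13 were called lower under every alternative run, and their directions did not change. With the replicate block, 2942 genes were higher and 3071 lower, and the counts were 2 higher HOX genes, 2 higher cofactors, 6 higher and 14 lower chromatin regulators, 12 lower upstream and limb regulators and 7 higher cluster neighbours. Higher chromatin regulators numbered 0 with DESeq2 size factors in edgeR and with no filter on low counts, and 2 with limma-voom, while lower cluster neighbours numbered 0 with no filter. Counting any gene with a read in every library as detected gave 2 HOX genes in the B cluster.

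Leaving out 1 library at a time gave 642 to 1489 higher and 850 to 1572 lower genes, 0 to 1 higher HOX genes, 0 to 1 higher and 4 to 7 lower chromatin regulators, 0 to 1 higher and 3 to 7 lower upstream and limb regulators, and 0 to 2 higher and 0 to 1 lower cluster neighbours. Omitting HA-NUR77 replicate 1 gave 672 higher and 903 lower genes, omitting GFP replicate 1 gave 642 and 850, and omitting GFP replicate 2 gave 927 higher genes. The higher HOX gene appeared without GFP replicate 1.

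Uncalled log2 fold changes near 0 changed sign. Hoxa9 was at -0.00031, and at 0.02 with upper-quartile factors, 0.01 with library totals only, 0.00087 with no filter, 0.0021 with the block and -0.06 to 0.07 with single libraries left out. Leaving out single libraries gave -0.15 to 0.35 for Hoxa3, -0.08 to 0.01 for Hoxa10, -0.09 to 0.12 for Hoxc4 and -0.11 to 0.07 for Hoxc9. The cause was not tested. Depth limits Hoxa4, Hoxa5, Hoxa13, Hoxc8 and the untested members, and the stricter filter gave no value for Hoxa4 and Hoxc8.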

Other observations

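Gm11539, a processed pseudogene inside the B cluster, had 10 reads in HA-NUR77 cells and 2 in GFP cells. Whether these reads arose there or from a similar transcript elsewhere was not tested. Gm11539 was chosen after its values were seen and is given with no test.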
